A study of Mus musculus with 6 samples.

Results

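The genes described here are the structural subunits of complexes I to IV and the protein genes of the mitochondrial genome. They were chosen by symbol among the protein-coding genes of the GRCm38 annotation: genes starting with Ndufa, Ndufb, Ndufc, Ndufs or Ndufv (without the assembly factors named Ndufaf), the genes Sdha to Sdhd, genes starting with Uqcr, Cyc1, the Cox4i to Cox8 subunits, and the protein genes starting with mt-. Of 82 annotated genes that fit, 78 have a row in the table of 26852 genes, 66 of them nuclear and 12 mitochondrial. The 4 genes without a row are Cox6a2, Cox8b, Cox8c and mt-Atp8, and the table lists only genes with a mean above 0.

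The respiratory chain of the mitochondrial inner membrane passes electrons from NADH and succinate to oxygen through complexes I, II, III and IV, and complexes I, III and IV pump protons whose return drives ATP synthesis by complex V. Most subunits are encoded in the nucleus and imported, while a small core set is encoded by the mitochondrial DNA, so complexes I, III and IV are built from products of both genomes. Midbrain dopamine neurons are known for their sensitivity to inhibitors of complex I.

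RNA of dissected whole midbrains at E14.5 was compared between Lmx1b fl/fl;Pitx3-Cre embryos (cKO) and Lmx1b wt/wt;Pitx3-Cre embryos (control), both on a C57Bl/6 background. The Cre is inserted in the Pitx3 locus, so embryos of both groups carried a Pitx3-Cre allele, and recombination is limited to the Pitx3-expressing cells, chiefly midbrain dopamine neurons, a small part of the tissue. There were 3 libraries per group, each made from 2 pooled embryos, and embryos came from 4 litters. The deposited table gives only the mean normalised count of each group, that is, of reads scaled by the size factor of their library. The whole-number reads behind these means were recovered for 76 of the 78 genes, and the 3 libraries of a group carry the letters a, b and c by falling size factor, since nothing ties them to a sample number. Between 28717242 and 34751675 recovered reads per library lay on genes.

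The targeted gene was counted at 1257, 1401 and 1455 in the cKO libraries a to c and at 1368, 1352 and 1474 in those of the control. These Lmx1b counts overlapped (log2 fold change -0.03, SE 0.07, exact permutation p = 0.8), and because they sum all exons and all cells of the midbrain they do not check the labels. Pitx3, which marks the recombined cells, was counted at 111, 162 and 150 in the cKO and at 177, 180 and 198 in the control (log2 fold change -0.41, SE 0.18, limma p = 0.041, exact permutation p = 0.1). In whole tissue, fewer cells of a type and less RNA per cell cannot be told apart. Cell type markers placed cKO replicate c apart: its 8 bone and mesenchyme markers summed to 13461 normalised counts and those of cKO replicate a to 1931, against 408 in cKO replicate b and 426 to 501 in the control libraries. With all libraries, 472 of 17167 genes had an unadjusted p under 0.05, without cKO replicate c 587 did, and over the fits with any library left out the number ranged from 342 to 653 (653 without control replicate a).

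Some of these genes have near-identical copies in the nuclear genome, which bears on how their reads can be assigned. The first stretch of mt-Co2, a core subunit of complex IV (chrM:7013-7072, plus strand), is shown with the same stretch of its unprocessed pseudogene Gm28661 on chromosome 1 (chr1:24615506-24615565, minus strand). Both stretches are of GRCm38, with differing bases in capitals; here there are none.
mt-Co2: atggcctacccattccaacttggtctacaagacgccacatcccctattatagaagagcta
Gm28661: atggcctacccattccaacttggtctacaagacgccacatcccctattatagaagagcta

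Over its whole length Gm28661 was identical to mt-Co2 at 681 of 681 bases. The copy of mt-Nd3, a complex I core subunit (chrM:9459-9518, plus strand), in Gm28438 (chr1:24613060-24613119, minus strand) differed at 1 base of 345, which is marked in capitals.
mt-Nd3: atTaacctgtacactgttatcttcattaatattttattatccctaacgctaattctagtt
Gm28438: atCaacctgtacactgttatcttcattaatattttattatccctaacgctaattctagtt

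The copy of mt-Co1, the catalytic subunit of complex IV, on chromosome 1 covers its last 31.8%, while Gm13340 on chromosome 2 aligned over the whole gene with 1508 of 1545 bases identical. All 6 differences of Gm29216 (chr1:24616138-24616197, minus strand) from mt-Co1 (chrM:6381-6440, plus strand) lie at its start and are in capitals.
mt-Co1: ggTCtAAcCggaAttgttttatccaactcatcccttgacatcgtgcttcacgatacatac
Gm29216: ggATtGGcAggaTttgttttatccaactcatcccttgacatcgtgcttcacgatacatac

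These copies belong to a run of 7 pseudogenes within 4663 bases of chromosome 1, from 24611535 to 24616197, which follow the order of the mitochondrial genome. Gm10925 was identical to mt-Atp6 at 678 of 678 bases, Gm28437 to mt-Co3 at 783 of 783 and Gm10222 to mt-Nd4l at 294 of 294. Gm28439 matched mt-Nd4 at 876 of 876 bases, which is 63.6% of that gene.

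The mitochondrial genes fell into separate ranges of level in both genotypes. The 7 genes that shared 62.2% or less of their 50-base windows with another annotated gene had group means of 635 or more, and the 5 genes that shared 98.0% or more had group means of 50.9 or less. An exception to this split is mt-Atp8, a subunit of complex V, which shared 0 of its 155 windows and has no row in the table; windows were compared only with annotated genes. By length, the control means were 122935 normalised counts per kb for mt-Co1, 98578 for mt-Cytb (the mitochondrial subunit of complex III), 64057 for mt-Nd1, 41671 for mt-Nd2, 29896 for mt-Nd4 and 29715 for mt-Nd5. For mt-Nd6, which lies on the opposite strand, the control level was 1224 per kb. The control level was 146 per kb for mt-Nd3, 22.1 for mt-Co2, 14.54 for mt-Co3, 11.6 for mt-Nd4l and 8.55 for mt-Atp6.

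The 5 low genes shared between 98.0% and 100% of their 50-base windows with another annotated gene, whereas mt-Nd1, mt-Nd6 and mt-Cytb shared 0%. For mt-Co1 the share was 51.1% and for mt-Nd4 62.2%. The copies on chromosome 1 were counted in the same low range: Gm28661 had means of 16.0 (cKO) and 10.04 (control) beside 8.07 and 15.1 for mt-Co2, and the other 6 copies had means between 1.26 and 16.3. Gm10925, at 16.3 and 13.4, was above mt-Atp6, at 3.85 and 5.83. Reads that matched more than 1 place were set aside in the deposited table under a line of their own, which held 17.5% of all counts and was 1.01 times as high in the cKO as in the control. With nearly all of their sequence found elsewhere, the counts of the 5 low genes are not read as transcript levels here, and which reads of the set-aside line belong to them was not tested. The levels per kb of mt-Co1 and mt-Nd4 divide by the whole gene length, while reads from their shared stretches may lie in that line. Those levels are therefore uncertain and may be too low.

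**Figure D1:**
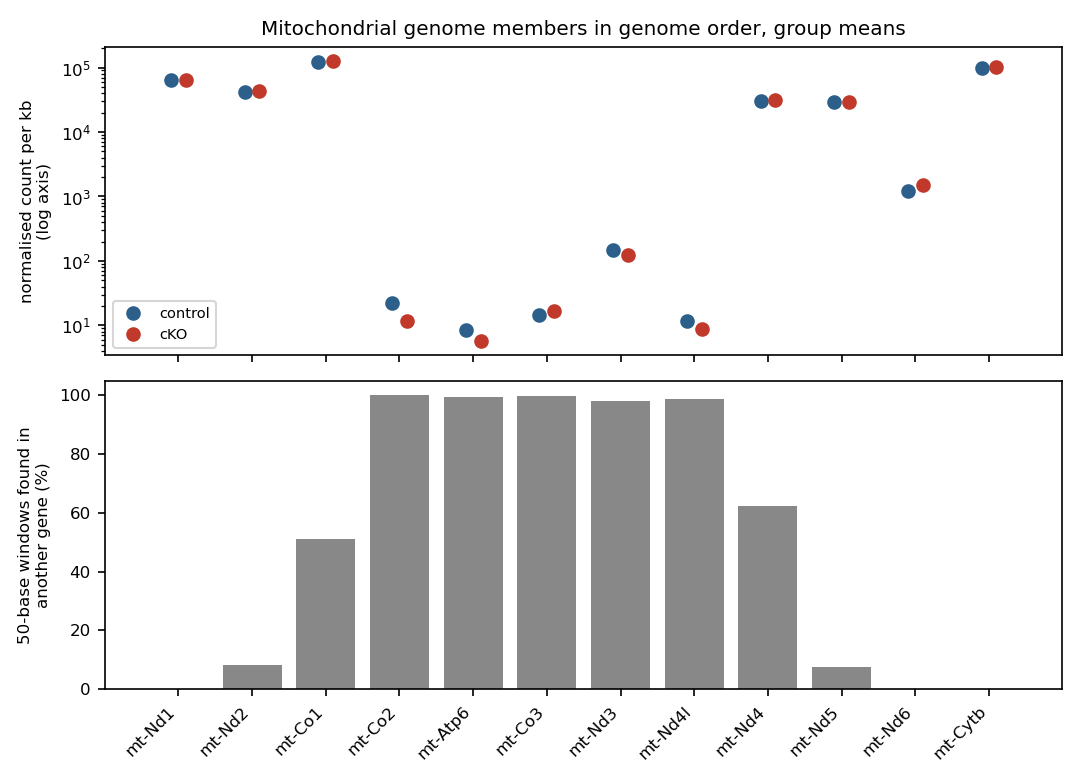
The upper panel plots the level of the 12 mitochondrial genome members with a row (mt-Atp8, with a share of 0%, has none) in genome order, as group means in normalised counts per kb on a log axis (blue, control; red, cKO; no error, since per-library reads of mt-Co1 and mt-Cytb were not recovered). The lower panel plots the percentage of each gene's 50-base windows found in another annotated gene: the 5 genes with shares from 98.0% to 100% are the 5 with levels at or below 146 per kb.

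Among the mitochondrial genes that could be read, the cKO and control libraries lay close together. The authors' means were 194895 in the cKO and 189934 in the control for mt-Co1, a ratio of 1.03, and 117713 and 112774 for mt-Cytb, a ratio of 1.04. The median log2 ratio of group means over the 7 mitochondrial genes with a mean of at least 100 was 0.051, against a median fitted log2 fold change of 0.0012 over all 17167 genes tested. The 12 listed mitochondrial genes together held 1.60% of the cKO gene counts and 1.57% of the control gene counts. Reads set aside for matching more than 1 place are not part of these shares.

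The complex I core subunit mt-Nd1 was counted at 65928, 57297 and 63344 in cKO libraries a to c, and at 65487, 55826 and 62595 in the control libraries. Replicate b was the lowest and replicate a the highest library of each group, and the ranges of the groups overlapped (log2 fold change 0.02, SE 0.06, exact permutation p = 0.7). This order of the libraries, and an overlap of the groups, was also seen for mt-Nd2, where cKO replicates a and c were above all control libraries, at 48044, 41793 and 46551 against 46159, 40486 and 43118 (log2 fold change 0.07, SE 0.06, exact permutation p = 0.4). For mt-Nd4 the counts were 44123, 40990 and 42919 against 44286, 37753 and 41549 (0.05, SE 0.05, exact permutation p = 0.7). Without control replicate a the log2 fold change of mt-Nd4 was 0.11, with a limma p of 0.039. For mt-Nd5 the counts were 52489, 52033 and 54454 against 60331, 48365 and 53905 (-0.03, SE 0.06, exact permutation p = 0.8). The recovered reads of these 4 genes rest on the single answer in which no library departs by more than 50% from the group mean; the kept answers departed by at most 11.3% and the nearest other answer by 69.8%.

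A different pattern was seen for mt-Nd6, the complex I subunit encoded on the other strand (chrM:13552-14070, minus strand). It was counted at 822, 660 and 836 in the cKO replicates and at 636, 625 and 644 in the control. All 3 cKO libraries were above all 3 control libraries, but cKO replicate b exceeded the highest control library by a ratio of only 1.03. The log2 fold change was 0.28 (SE 0.10), with a limma p of 0.019, an adjusted p of 1.00 and a two-sided exact permutation p of 0.1, the smallest that 3 against 3 libraries allow; the limma p was 0.071 without cKO replicate a and 0.075 without cKO replicate c. The end of mt-Nd6 overlaps the end of mt-Nd5 on the opposite strand, and whether counting used the strand is not given in the sources used here, so reads of mt-Nd5 and of antisense RNA cannot be told apart from those of mt-Nd6.

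The nuclear genes were compared next. Their summed counts were 113413, 114804 and 106404 in cKO libraries a to c, and 111403, 111510 and 113198 in the control libraries. The groups overlapped, since cKO replicates a and b were above and cKO replicate c below all control libraries. Nuclear members held 0.346% of the cKO gene counts and 0.349% of the control gene counts.

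**Figure D2:**
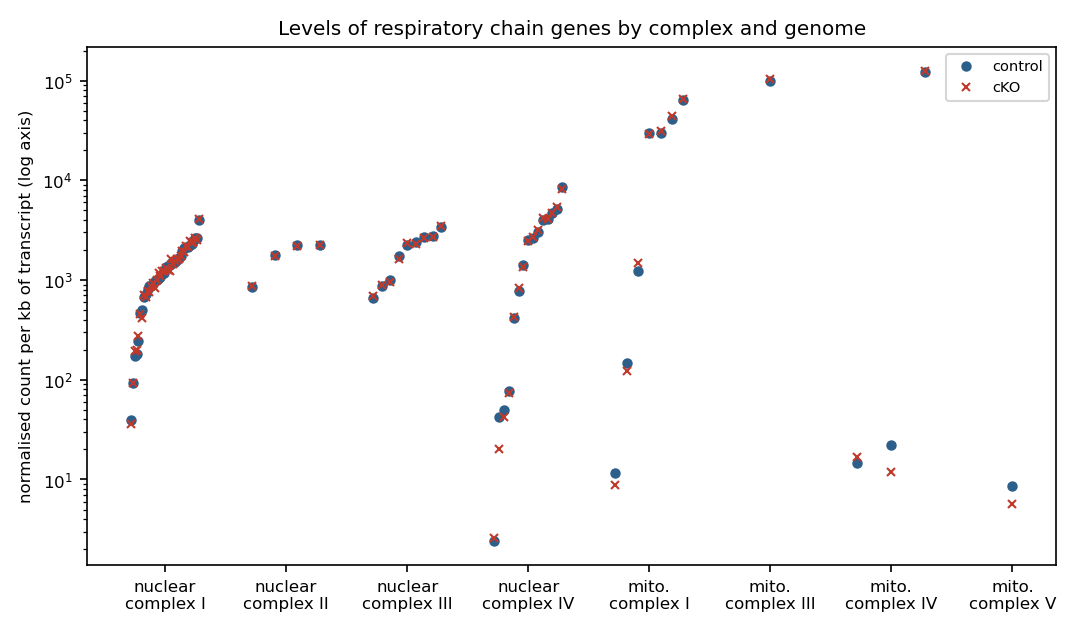
Each point is the mean of a member in the control (blue circles) or the cKO (red crosses), in normalised counts per kb of its main transcript on a log axis, by complex and genome. Complexes are assigned by gene symbol. In the control, nuclear complex I reached from 39.1 (Ndufb4, which has an identical copy) to 3994 per kb (Ndufa4, now assigned to complex IV). Complex II reached from 843 to 2252, complex III from 654 to 3422 and complex IV from 2.39 to 8650, and the control and cKO marks of a member mostly coincide.

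Of 73 members with a mean normalised count of at least 10, 4 were lower and 1 was higher in the cKO at an unadjusted limma p under 0.05. The count was 2 without cKO replicate a and 3 without control replicate c. Without cKO replicate c the split turned, with 1 member lower (Ndufs7) and 3 higher: Ndufb9 at 0.22, Ndufb2 at 0.22 and Cox7a2 at 0.15 on the log2 scale. Without control replicate a, 3 were lower (Ndufs7, Ndufa13 and Cox4i2) and 4 higher (mt-Nd2, mt-Nd4, mt-Nd6 and Cox7a2l). The 5 members are 6.85% of those tested, and over all 17167 genes tested 2.75% had such a p (1.6% lower and 1.15% higher). With all libraries no member and no gene passed an adjusted limma p of 0.05 (0.0%), and without control replicate a 3 genes did, none of them a member (the Y-linked genes Kdm5d, Uty and Ddx3y, named after their values were seen). The sex of the pooled embryos did not enter the fit, and its part in the members' values was not tested. The groups did not overlap for 6 members, 4 lower and 2 higher, and did not overlap for 7.56% of all genes (3.69% lower, 3.87% higher). The 5 members belong to complexes I and IV, and the median log2 fold change was -0.0085 over the 73 members and 0.0012 over all genes.

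By complex, the medians lay near 0. Over the 38 nuclear genes of complex I it was -0.0040 (19 below and 19 above 0), with 3 lower and 0 higher at p under 0.05. Over all genes tested 1.6% were lower and 1.15% higher at such a p. Without cKO replicate c, Ndufs7 was the only one of the 38 that was lower, and Ndufb2 and Ndufb9 were higher. The median was -0.015 over the 4 genes of complex II, -0.020 over 9 genes of complex III and -0.0069 over 14 tested genes of complex IV. No gene of complexes II and III had an unadjusted p under 0.05, and 1 gene of complex IV did.

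The precision sets how small a change of the whole-midbrain average could be seen. The recombined cells are a small part of that tissue, so the intervals do not bound a change within those cells. For 57 of the 73 members the 95% interval of the fold change lay within 1.3-fold in both directions, as it did for 57.9% of all genes tested. With a mean of at least 100, this held for 53 of 60 nuclear members and for 76.8% of all genes. The intervals of the other 16 members reach beyond 1.3-fold, and they include Ndufs7, Ndufc1, Cox4i2 and mt-Nd6.

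**Figure D3:**
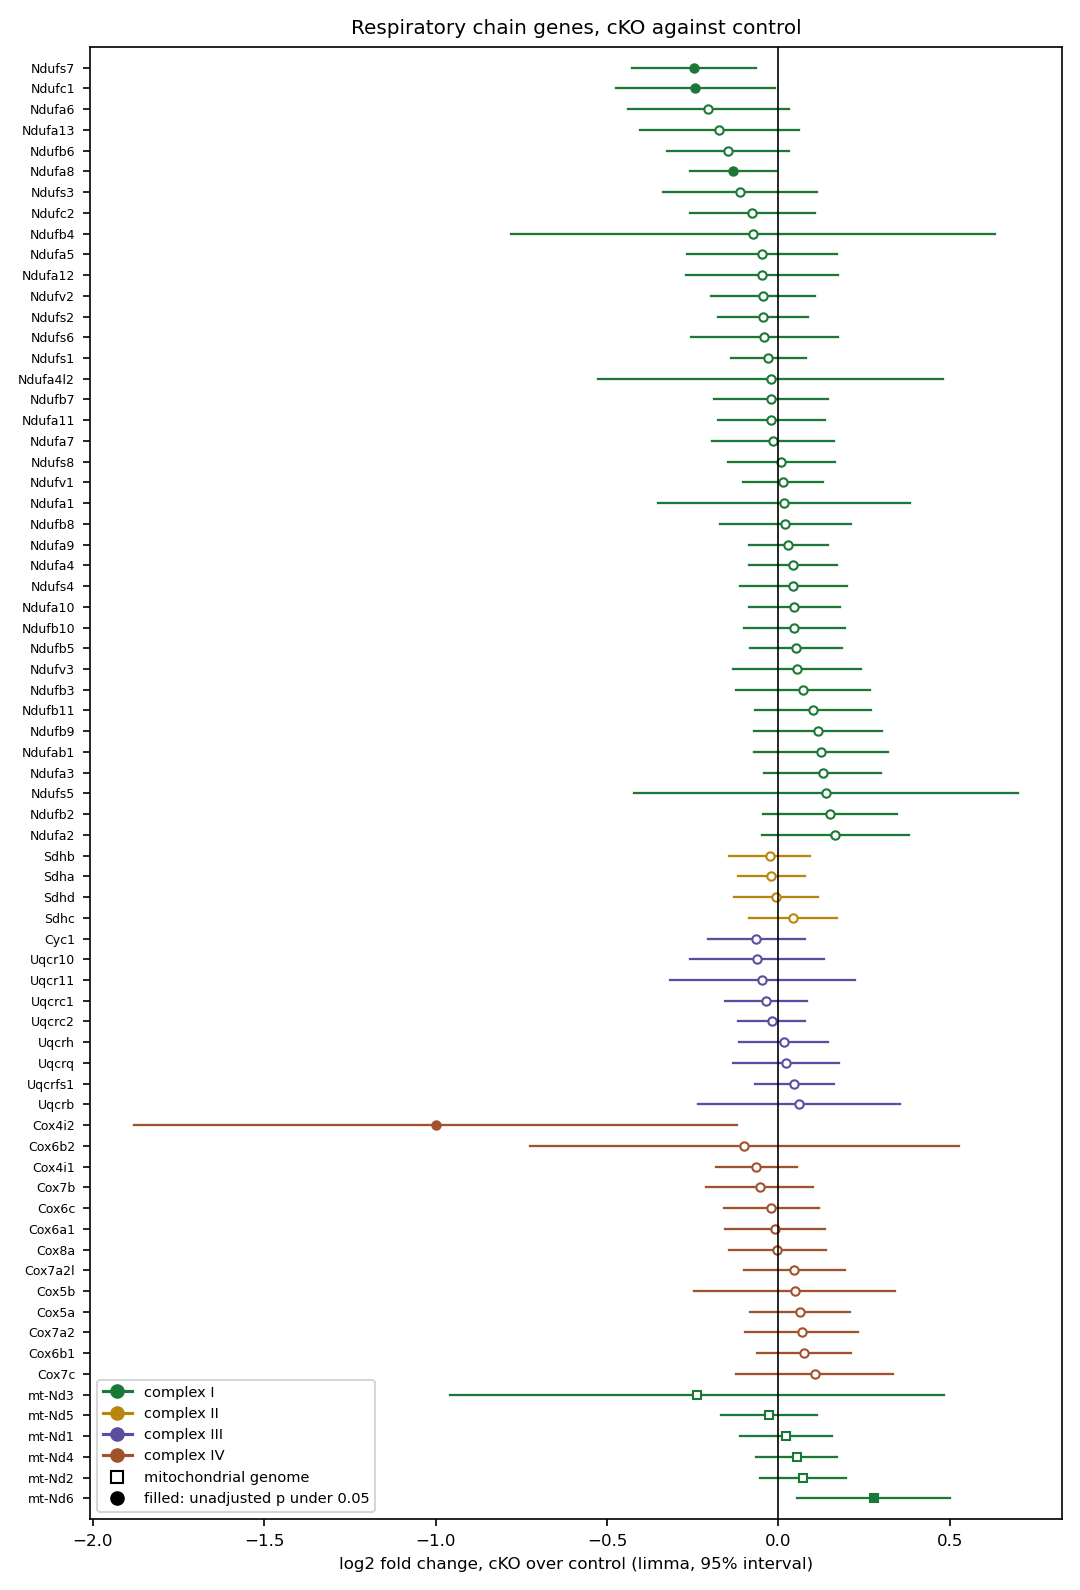
Points are the fitted log2 fold changes, cKO over control, of the 70 tested members with a mean of at least 20, ordered by genome, complex and value; bars are 95% intervals from limma with 3 libraries per group. Filled marks have an unadjusted p under 0.05 (Ndufs7, Ndufc1, Ndufa8, Cox4i2 and mt-Nd6), and all other intervals cross 0.

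Complex I oxidises NADH at a peripheral arm that carries flavin and iron-sulfur clusters and pumps protons in a membrane arm. The 11 Ndufv and Ndufs genes, most of them of the peripheral arm, had a median log2 fold change of -0.03. At p under 0.05, 1 of them was lower, as were 1.6% of all genes tested. The gene with an unadjusted p under 0.05 was Ndufs7 (ENSMUSG00000020153), which encodes the subunit holding the last iron-sulfur cluster before ubiquinone. It was counted at 776, 903 and 777 in the cKO replicates and at 946, 982 and 976 in the control. All cKO libraries were below the lowest control library, cKO replicate b by the least. The log2 fold change was -0.25 (SE 0.08, 95% interval -0.43 to -0.065, limma p = 0.012, adjusted p = 1.00, exact permutation p = 0.1). The peripheral-arm genes Ndufv1, which carries the flavin, and Ndufs1 had fold changes of 0.01 (SE 0.05) and -0.03 (SE 0.05).

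The 15 Ndufa genes had a median log2 fold change of -0.016, with 1 lower at p under 0.05, beside 1.6% of all genes tested. Ndufa8 (ENSMUSG00000026895), an accessory subunit that faces the intermembrane space, was counted at 1688, 1662 and 1612 in the cKO and at 1808, 1854 and 1779 in the control. The 3 values of each group lay close together and the groups were apart (log2 fold change -0.13, SE 0.06, limma p = 0.041, adjusted p = 1.00, exact permutation p = 0.1), but its limma p was between 0.061 and 0.12 in 5 of the 6 fits with a library left out, all but that without cKO replicate a. Ndufa3, a small accessory subunit of the membrane arm, was counted at 812, 801 and 872 against 738, 767 and 768. It was higher in each cKO library than in each control library, but its log2 fold change of 0.13 (SE 0.08) had a limma p of 0.13 and an exact permutation p of 0.1. The highest fold change of the nuclear complex I genes was that of Ndufa2, an accessory subunit, at 667, 734 and 614 against 600, 635 and 555 (0.17, SE 0.10, exact permutation p = 0.2), with overlapping groups.

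Of the 2 Ndufc genes, Ndufc1 (ENSMUSG00000037152), a membrane-arm subunit, was counted at 538, 578 and 461 in the cKO and at 661, 584 and 615 in the control. The groups were separated by little, since cKO replicate b was at 0.990 times control replicate b. Its log2 fold change was -0.24 (SE 0.11, limma p = 0.042, adjusted p = 1.00, exact permutation p = 0.1), and without cKO replicate c it was -0.16 with p = 0.18 by limma. Its limma p was also above 0.05 without cKO replicate a and without control replicates a or c, at 0.056 to 0.13. The 10 Ndufb genes, all membrane-arm subunits, had a median of 0.05, 7 above and 3 below 0, and none had a p under 0.05.

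**Figure D4:**
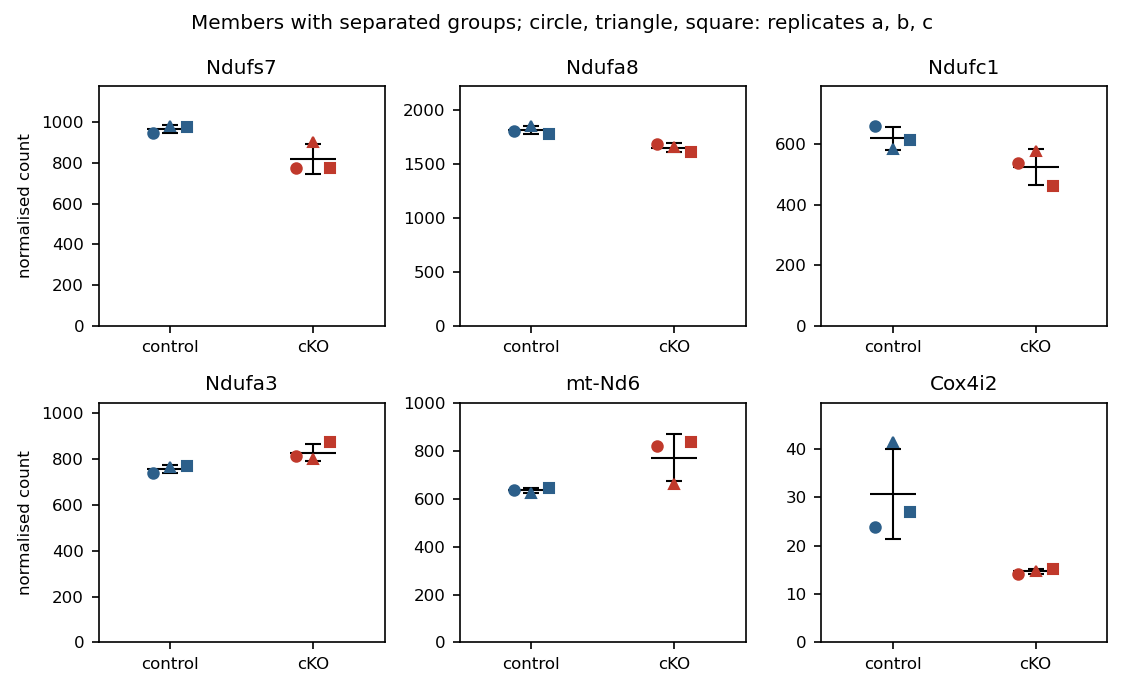
Normalised counts of the 6 members whose groups did not overlap, in the 3 control (blue) and 3 cKO (red) libraries; horizontal bars are group means with the SD over 3 libraries, and each axis starts at 0. Ndufs7, Ndufa8, Ndufc1 and Cox4i2 were lower and Ndufa3 and mt-Nd6 higher in all 3 cKO libraries, by margins that are small beside the level for all but Cox4i2.

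Complex II, succinate dehydrogenase, is the only complex of the chain with no mitochondrially encoded subunit and also belongs to the tricarboxylic acid cycle. Its flavoprotein gene Sdha was the highest of the complex per kb, at 2222 in the cKO and 2252 in the control. Sdha was counted at 6266, 6468 and 6596 in the cKO against 6599.5, 6616 and 6376 in the control, and the groups overlapped (log2 fold change -0.02, SE 0.04, 95% interval -0.12 to 0.077). The 4 genes ranged from -0.03 for Sdhb, the iron-sulfur subunit, to 0.04 for Sdhc, a membrane anchor, and the interval of each lay within 1.3-fold.

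Complex III passes electrons from ubiquinol to cytochrome c. Per kb, Uqcrh, the hinge subunit, was the highest of its nuclear genes, at 3458 in the cKO and 3422 in the control. The lowest fold change of the nuclear genes was that of Cyc1, the cytochrome c1 subunit, counted at 3518, 3714 and 3175 against 3516, 3540 and 3829 (-0.06, SE 0.06, exact permutation p = 0.5). The highest was that of Uqcrb, a small structural subunit, at 418, 300 and 383 against 361, 354 and 335 (0.06, SE 0.13, exact permutation p = 0.7). Both pairs of groups overlapped, and the interval lay within 1.3-fold for all 9 genes.

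Complex IV, cytochrome c oxidase, has nuclear subunits in tissue-specific pairs. The ubiquitous member of each pair made up nearly all of the count. Cox4i1, the common form of the largest nuclear subunit, was the highest nuclear member per kb, at 8268 (cKO) and 8650 (control), and made 99.8% and 99.5% of the summed Cox4i1 and Cox4i2 levels per kb. Cox6b1 made 98.7% in the cKO and 98.5% in the control of its pair with Cox6b2, a form known from testis. Cox7a1, the form of heart and skeletal muscle, made 0.716% and 0.861% of the Cox7a set, beside Cox7a2 at 53.7% and 53.2% and Cox7a2l, a subunit tied to supercomplexes, at 45.6% and 45.9%. Cox7b2 had at most 3 reads in any library, a level at the counting floor, and of the Cox6a and Cox8 sets only Cox6a1 and Cox8a are listed. The muscle markers were also low, at 75.9 to 192 normalised counts summed over 8 genes of skeletal muscle, with Myog and Ckm under 3 in every library.

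Cox4i2 (ENSMUSG00000009876; chr2:152754173-152765037, plus strand), the form of the Cox4 subunit induced by low oxygen and known from lung and from pericytes of vessels, differed most among all members in fold. It had 15, 14 and 14 reads in cKO libraries a to c, and 27, 43 and 25 in the control replicates, or 14.1, 14.8 and 15.2 normalised counts against 23.9, 41.3 and 27.0. All cKO libraries were below all control libraries, with control replicate b the highest. The log2 fold change was -1.0 (SE 0.40, 95% interval -1.88 to -0.12, limma p = 0.029, adjusted p = 1.00, exact permutation p = 0.1), and without control replicate b it was -0.77 with p = 0.11 by limma. Leaving out any of the cKO libraries gave limma p between 0.055 and 0.070.

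Ndufa4l2, another gene induced by low oxygen and known from pericytes, was counted at 108, 69.7 and 80.1 in the cKO and at 94.7, 82.6 and 82.1 in the control (log2 fold change -0.02, SE 0.23), so it did not separate the groups. It made 2.19% in the cKO and 2.27% in the control of its summed level per kb with Ndufa4, a subunit now assigned to complex IV, which was the highest nuclear Nduf gene at 4106 and 3994 per kb. Of 8 markers of endothelium and pericytes, 0 were lower and 0 higher at p under 0.05, and their summed counts were 9943 to 10347 in the cKO libraries and 9644 to 10000 in the control libraries. The pericyte marker Rgs5 was counted at 3514, 3378 and 3116 against 3201, 3259 and 2987.

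The nuclear members also varied together between libraries. Relative to the mean of the 6 libraries, the median log2 deviation of the 65 tested nuclear members was 0.03, 0.04 and -0.07 in cKO libraries a to c, and 0.00037, -0.0099 and 0.019 in the control libraries. In cKO replicate c the median was below 0 for each complex, from -0.03 for complex II to -0.09 for complex I. It was the lowest of the 6 libraries for 30 of the 65 nuclear members (46.2%), and for 15.7% of the 17131 genes tested that had reads in every library. The mitochondrial genes did not follow: the median of mt-Nd1, mt-Nd2, mt-Nd4 and mt-Nd5 was 0.04 in cKO replicate c. This library was also the one with the highest bone and mesenchyme markers, and the part of these cells in its lower values was not tested. Without it, the median log2 fold changes of complexes I, III and IV were the highest of all fits with a library left out, at 0.04, 0.023 and 0.04.

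**Figure D5:**
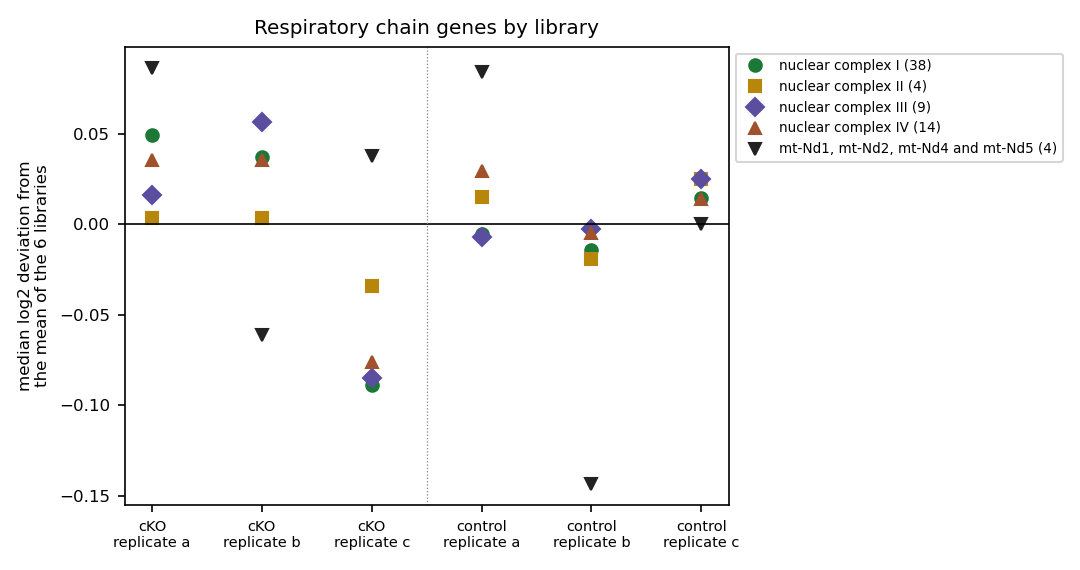
Each mark is the median, over the members of a nuclear complex or over 4 mitochondrial genes (numbers of genes in the key), of the log2 deviation of a library from the mean of the 6 libraries. In cKO replicate c all 4 nuclear complexes lie below 0, at -0.03 to -0.09, and the mitochondrial genes at 0.04.

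Nuclear pseudogenes also bear on some nuclear members. Processed copies arise when an mRNA is reverse transcribed into the genome, and a recent copy matches the coding sequence. Cox7c, a small subunit of complex IV on chromosome 13, is shown over the first bases of its copy Gm12338 (chr11:75599895-75599954, minus strand, GRCm38), which is identical to it at 192 of 192 bases.
Cox7c: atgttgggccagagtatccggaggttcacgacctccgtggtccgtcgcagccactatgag
Gm12338: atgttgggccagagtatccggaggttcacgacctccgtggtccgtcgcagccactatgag

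Cox7c was counted at 479, 427 and 429 in the cKO against 393, 423 and 431 in the control, and its fold change was the highest of the nuclear complex IV genes (0.11, SE 0.10, exact permutation p = 0.3). Gm12338 was counted higher than its parent, at 2080, 1780 and 1697 in the cKO and at 1686, 2022 and 1793 in the control. Similarly, Cox5b had means of 368 and 361, and Gm11273, 387 of 390 bases identical, had means of 1092 and 1128. Gm11273 is annotated as protein-coding and not as a pseudogene, and is counted among the copies here. For Ndufs5 the means were 186 and 167, and for its copy BC002163 they were 648 and 661. Ndufb4 had means of 35.3 and 37.9 beside 68.8 and 62.8 for the fully identical Ndufb4c. In all, 14 nuclear members had an annotated copy with 5% or more of their windows, and 7 of the 14 copies with a row were counted above their parent in the control. How reads were split between parents and copies cannot be told apart from expression of the copies, so the levels of these members are uncertain. Of the members with separated groups, Ndufa8, Ndufa3, Cox4i2 and mt-Nd6 shared 0% of their windows with another gene, Ndufs7 0.443% and Ndufc1 4.26%.

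Many respiratory chain promoters are known to be bound by the nuclear respiratory factor NRF1, by ETS family factors (NRF2), by YY1 and by estrogen-related receptors. Promoters from 250 bases before to 50 after the start were searched in RefSeq sequences (GRCm38.p6), which matched 53 of the 66 nuclear members with 55 promoters. On either strand, the NRF1 letters GCGCANGCG were found in 14 of 55 (25.5%), in 6.25% of all 32851 promoters and in 12.2% of 14194 promoters of genes that passed the minimum mean. The YY1 letters AANATGGC were found in 13 (23.6%, against 6.05% and 7.57%), the ETS letters CCGGAAG in 11 (20%, against 8.86% and 15.6%) and the receptor letters TCAAGGTCA in 1, that of Sdhd (1.82%, against 0.423% and 0.268%). A match is a description of letters and not of binding.

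The promoters of the 2 nuclear complex I genes with the smallest limma p are shown, with matches to these letters in capitals. That of Ndufa8 (chr2:36049289-36049588, minus strand) holds the NRF1 letters at 2 places on the opposite strand, whose matches start 29 and 9 bases before the start site.
Ndufa8: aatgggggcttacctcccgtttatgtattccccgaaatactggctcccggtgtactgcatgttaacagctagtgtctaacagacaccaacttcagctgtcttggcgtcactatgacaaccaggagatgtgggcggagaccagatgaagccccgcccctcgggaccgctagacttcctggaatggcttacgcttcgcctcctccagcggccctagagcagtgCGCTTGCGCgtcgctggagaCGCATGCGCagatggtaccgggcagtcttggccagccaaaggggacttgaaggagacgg

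That of Ndufs7 (chr10:80249199-80249498, plus strand) holds the YY1 letters from base 25 of the transcript on.
Ndufs7: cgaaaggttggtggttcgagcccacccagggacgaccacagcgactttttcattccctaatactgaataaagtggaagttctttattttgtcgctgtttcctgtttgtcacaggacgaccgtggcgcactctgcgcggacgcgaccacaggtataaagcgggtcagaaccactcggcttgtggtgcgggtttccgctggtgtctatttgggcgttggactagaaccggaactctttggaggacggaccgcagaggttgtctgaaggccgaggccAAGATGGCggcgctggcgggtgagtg

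The promoters of Ndufc1 and Ndufa3 also held the YY1 letters.

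Counts for other mitochondrial gene lists follow, beside 1.6% lower and 1.15% higher at p under 0.05 over all genes tested; no difference between these lists and the members was tested. Of 17 nuclear genes of complex V, which makes ATP, 0 were lower and 0 higher at p under 0.05, with a median log2 fold change of -0.016. Of 41 assembly factors 0 were lower and 0 higher (median 0.0076), of 13 tricarboxylic acid cycle genes 0 and 0 (median -0.00038), and of 18 regulators of mitochondrial gene expression 0 and 0 (median -0.0098). Cytochrome c (Cycs) had a log2 fold change of -0.13 (SE 0.22). Of 77 genes of the mitochondrial ribosome, 0 were lower and 3 higher (median 0.0041), namely Mrpl1 at 0.21, Mrpl35 at 0.23 and Mrps2 at 0.20, with limma p of 0.039, 0.035 and 0.020 and an adjusted p of 1.00 each. Beside these, 3 of 10 markers of midbrain dopamine neurons were lower (median -0.20), 3 of 6 radial glia markers were lower (median -0.14), 2 of 7 blood markers were higher (median 0.30) and 1 of 7 tested bone and mesenchyme markers was higher (median 1.84), and 0 of 7 neuron markers and 0 of 8 cycling progenitor markers had a p under 0.05. The part of these cells in the members' values was not tested.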

How the data were processed

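Per the submitters' processing notes, TopHat 1.0.14, Bowtie2 2.1.0, HTSeq 0.6.1p1 and DESeq 1.10.1 were used on GRCm38.p4; read length and strand use are not given in the sources used here. The authors deposited 1 table whose signal columns are means, over all libraries and per group, of read counts divided by a size factor per library; its ratio, log2, p and rank columns are the authors' comparison and were not used. The design assumed counts per library. Whole-number reads were recovered from the 15 digits of each mean for 26842 of 26852 genes, 594 of them within 50% of the mean; the means of mt-Co1 and mt-Cytb were too high for the search. The 3 lines naming no gene hold 31.8% of counts and were left out.

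limma 3.58.1 (voom, R 4.3.3) was fitted to genes with a mean of 10 or more with the recovered size factors and Benjamini-Hochberg adjustment over 17167 genes; single members also by a two-sided exact permutation test. The recovery and the fit were first tested on simulated data. GENCODE M21 gave symbols and the main transcript lengths for levels per kb. Copies were found by exact shared windows of 50 bases. Members and lists were chosen with earlier results of these data known. Named members are all mitochondrial genes, nuclear members with p under 0.05 or separated groups, the highest level and the extreme fold changes per complex, paired isoforms, and members at 3 reads or fewer; copies and Rgs5 were named after their values were seen, as were Sdhd for its motif, Ndufs1 and Ndufv1. Ndufa13, Ndufb2 and Ndufb9 were named for their values in fits with a library left out. Replicates are pools of 2 embryos.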

Additional observations from a re-analysis of the deposited data

How the results depend on the processing

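No paired analysis was possible because the labels number the samples 1 to 3 and 4 to 6, and although the table's column names number the libraries 1 to 3 in each group, they hold only group means and the recovered libraries carry no number. The planned edgeR and DESeq2 fits were not run. Fits without genes recovered by the window and with annotated copies added to their parents were chosen after seeing the data. The number of members with an unadjusted p under 0.05, 5 in the report, was 4 or 5 under 6 other settings (minimum mean 50 or none, limma-trend, TMM, and the 2 added fits) and ranged from 2 to 7 with a library left out; it was 2 without cKO replicate a and 3 without control replicate c. Without cKO replicate c 1 was lower and 3 were higher, against 4 lower and 1 higher with all libraries. No member passed an adjusted p of 0.05 in any of these fits; over all genes 3 did without control replicate a, and 0 did in the other fits. With a library left out, the p of Ndufs7 stayed under 0.05 in 6 of 6 fits, that of mt-Nd6 in 4 (0.07 without cKO replicate a and 0.07 without cKO replicate c), those of Cox4i2 and Ndufc1 in 2 and that of Ndufa8 in 1. Ndufa8 also had a p of 0.065 with no minimum mean. No sign of these members reversed. The median log2 fold change of complex IV, -0.0069, became 0.047 at a minimum mean of 50, which leaves out Cox4i2, Cox7a1 and Cox6b2, and was -0.081 as a mean in place of a median; it ranged from -0.043 to 0.044 with a library left out. The medians of complexes I, II and III moved by less than the spread between libraries under every alternative run. Their signs changed in some fits, as without cKO replicate c, at 0.04 for complex I and 0.023 for complex III. With Ndufa4 moved to complex IV, the median of complex I was -0.016. The ratio of the mitochondrial genes had only 4 alternatives, pseudocounts of 1 and 10 among them, which hardly affect genes this high. It was not refitted with a library left out, so its dependence on single libraries was not tested. Few reads limit Cox4i2, Cox7a1 and Cox6b2, whose intervals reach far beyond 1.3-fold. The intervals of Ndufb4 and of the tested low mitochondrial genes are as wide, and these genes also share sequence with copies.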
